A study of Mus musculus with 16 samples.

Results

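The 34 genes described here build the peroxisome and run its lipid chemistry. They comprise 13 peroxins (Pex genes) and 21 enzymes and transporters, of which 11 belong to β-oxidation, 3 to the breakdown of branched-chain and 2-hydroxy fatty acids, 4 to the movement of fatty acids and their products across the membrane, 2 to ether lipid synthesis and 1 encodes catalase. They were taken by gene symbol according to function, with earlier results of these data known. All 34 were among the 17410 genes of the tables and were tested in every comparison. The RNA came from 16 mouse livers in 4 groups of 4, in 2 experiments. Both manipulated ChREBPα, 1 of the protein forms made from Mlxipl, which encodes a transcription factor that responds to sugars. In the deletion experiment every mouse carried Chrebpα-flox/flox alleles and ate a NASH diet for 12 weeks. That diet drew 40% of its calories from fat and 20% from fructose and contained 2% cholesterol. An adeno-associated virus with the hepatocyte promoter TBG delivered GFP to the WT_NASH mice (livers 17 to 20) and Cre recombinase to the LKO_NASH mice (livers 21 to 24). In the overexpression experiment wildtype mice aged 2 months ate the HFLMCD diet for 3 weeks, which lacks choline, has 0.1% added methionine and draws 45% of its calories from fat. Adenovirus was given 1 week before dissection. It carried GFP in livers 9 to 12 (Ad_GFP_HFLMCD) and Chrebpα in livers 13 to 16 (Ad_Chrebpa_HFLMCD). The sources used here do not give the age of the NASH-diet mice or the promoter of the adenovirus.

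Peroxisomes are single-membrane organelles that import their enzymes, already folded, from the cytosol. Peroxins insert the membrane proteins (Pex3, Pex16, Pex19), recognise and carry the cargo (Pex5, Pex7), dock it (Pex13, Pex14), recycle the receptor (Pex2, Pex10, Pex6, Pex26) and elongate and divide the organelle (the Pex11 family). In hepatocytes the organelle shortens very-long-chain, branched-chain and dicarboxylic fatty acids and bile acid precursors, and its oxidases release hydrogen peroxide, which catalase breaks down. In rodents the nuclear receptor PPARα induces many of these genes, among them Ehhadh, Acaa1b and Pex11a, when fatty acids accumulate. ChREBP is best known for the genes of glycolysis and fatty acid synthesis.

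Library totals ran from 21254937 to 40327264 expected counts, the estimated reads per gene that the authors deposited. Mlxipl, the targeted gene (NCBI gene 58805), ranged over 50.1 to 80.4 FPKM in the WT_NASH livers and 47.5 to 100.1 in the LKO_NASH livers. In the other experiment it spanned 39.0 to 48.5 FPKM with GFP virus and 44.7 to 47.8 with Chrebpα virus. FPKM is the deposited fragment count per kilobase of transcript, relative to library depth. Its edgeR log2 fold change was 0.05 in the deletion experiment (adjusted p = 0.916) and 0.15 in the overexpression experiment (adjusted p = 0.241), so the total signal of this gene does not check the labels of the virus groups. The sources used here name neither the deleted exon nor the vector sequence. Hepatocyte markers were high in all livers, with Alb between 23915 and 41245 FPKM, whereas the adipocyte marker Adipoq was at 0 to 0.05 FPKM. Cfd, also on the adipocyte list, was at 0.23 to 60.2 FPKM in WT_NASH and 16.5 to 107.3 in LKO_NASH against at most 0.22 in the HFLMCD livers. In whole liver, fewer cells of a type and less RNA per cell cannot be told apart.

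A few enzymes carried most of the peroxisomal transcript signal. Scp2, whose longer product is the thiolase for branched-chain substrates and whose shorter product carries sterols, led in every group, at 1395 ± 185 FPKM in WT_NASH and 997 ± 27.7 in Ad_GFP_HFLMCD (SD, n = 4 here and below). Phyh, which starts the α-oxidation of phytanic acid, had 1286 ± 197 and 818 ± 78.1 FPKM in the same groups. Catalase (Cat) had 936 ± 209 and 830 ± 59.5 FPKM, and Acaa1b, a 3-ketoacyl-CoA thiolase, had 631 ± 173 and 318 ± 31.4 FPKM. In Ad_GFP_HFLMCD Cat and Phyh lay within their spread of each other. Together these 4 genes made 71.1% of the summed FPKM of the members in WT_NASH and 63.9% in Ad_GFP_HFLMCD. In WT_NASH the 13 peroxins summed to 307 ± 22.5 FPKM against 5671 ± 677 for the 21 enzymes and transporters. Among peroxins Pex11a was the highest in WT_NASH at 54.9 ± 1.81 FPKM, while Pex19, the chaperone of peroxisomal membrane proteins, was the highest in Ad_GFP_HFLMCD at 51.3 ± 3.32 FPKM. At the low end stood Pex10 (1.92 ± 0.43 FPKM in WT_NASH and 3.42 ± 0.62 in Ad_GFP_HFLMCD), Agps, the ether lipid synthase (1.80 ± 0.22 and 4.25 ± 0.31 FPKM), and Abcd2, a transporter of very-long-chain acyl-CoA (1.06 ± 0.69 and 10.6 ± 1.60 FPKM). The summed FPKM of all members was 5978 ± 698 in WT_NASH, 7173 ± 882 in LKO_NASH, 4638 ± 157 in Ad_GFP_HFLMCD and 5376 ± 80.1 in Ad_Chrebpa_HFLMCD. Between the control groups the median log2 difference of all genes was -0.48 on log2(FPKM + 1). A gap in FPKM between the experiments therefore does not by itself show a difference. Pex10 and Pex19 were not called between the control groups by counts.

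Promoters of 4 members are printed, chosen by their edgeR calls with ChREBPα virus, given below. Pex11a and Cat were called higher, whereas Ehhadh and Acaa1b were not. The calls do not show that the genes moved differently, since all 4 pointed up. Ehhadh had the largest fold change of the members and was called higher by DESeq2 (adjusted p = 0.00647). Each is the RefSeq sequence of GRCm38.p6 from 250 bases before to 50 bases after the gene start, read on the minus strand, 5′ to 3′. Capitals mark AGGTCA on either strand, the half-site that nuclear receptors such as PPARα bind. The windows lie at chr7:79743082-79743381 (Pex11a), chr2:103485104-103485403 (Cat), chr16:21787785-21788084 (Ehhadh) and chr9:119157044-119157343 (Acaa1b).
Pex11a: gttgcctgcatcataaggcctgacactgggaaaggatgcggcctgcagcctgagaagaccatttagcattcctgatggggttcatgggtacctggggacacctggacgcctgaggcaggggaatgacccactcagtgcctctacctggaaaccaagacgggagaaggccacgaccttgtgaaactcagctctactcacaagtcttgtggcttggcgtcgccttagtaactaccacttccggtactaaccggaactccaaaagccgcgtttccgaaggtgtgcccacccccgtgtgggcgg
Cat: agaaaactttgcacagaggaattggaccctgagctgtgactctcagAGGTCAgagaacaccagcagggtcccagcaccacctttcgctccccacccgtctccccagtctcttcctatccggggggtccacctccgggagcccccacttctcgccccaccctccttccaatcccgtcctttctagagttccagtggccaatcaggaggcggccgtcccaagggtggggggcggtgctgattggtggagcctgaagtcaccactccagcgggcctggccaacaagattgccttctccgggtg
Ehhadh: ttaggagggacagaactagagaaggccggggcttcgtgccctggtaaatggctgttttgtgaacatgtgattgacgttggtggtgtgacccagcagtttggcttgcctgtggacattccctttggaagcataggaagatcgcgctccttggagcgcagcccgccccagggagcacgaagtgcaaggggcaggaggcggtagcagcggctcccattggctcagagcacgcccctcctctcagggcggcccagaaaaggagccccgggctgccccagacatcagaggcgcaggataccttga
Acaa1b: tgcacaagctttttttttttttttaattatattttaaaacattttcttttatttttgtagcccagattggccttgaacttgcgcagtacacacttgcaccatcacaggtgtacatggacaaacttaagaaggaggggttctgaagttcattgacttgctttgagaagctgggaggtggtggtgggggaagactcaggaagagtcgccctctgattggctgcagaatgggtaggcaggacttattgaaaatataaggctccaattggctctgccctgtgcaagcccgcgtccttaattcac
Cat holds 1 half-site, at base 47 of the window, and the windows of Pex11a, Ehhadh and Acaa1b hold none. RefSeq windows were matched for 29 of the 34 members, and AGGTCA was found in 4 of them (13.8%: Cat, Pex11g, Phyh and Scp2) against 18.1% of 27025 genes. CACGTG, an E-box core contained in the paired element that ChREBP binds with its partner Mlx, was found in 1 member (3.45%, Gnpat) against 8.09% of genes. A pair of AGGNCA half-sites separated by 1 base on either strand, the form bound by PPARα with RXR, which overlaps the half-site search, was found in 0 of 29 members against 0.451% of genes. These are letter matches within 300 bases only. No promoter entry was matched for Pex2, Pex19, Hsd17b4, Amacr and Abcd2.

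Added ChREBPα was examined in livers of the choline-free diet. With Chrebpα virus 7 of the 34 members rose and 1 fell (edgeR quasi-likelihood test, Benjamini-Hochberg adjusted p below 0.05 over 13658 genes), against 4.95% of all genes called higher and 3.18% called lower. The genes that rose were the peroxisome division factor Pex11a and 6 enzymes: Eci2, Hacl1, Cat, Acox2, Scp2 and Phyh. The transporter Abcd2 fell. Of the 13 peroxins 1 was called, and of the 21 enzymes and transporters 6 were called higher and 1 lower. Fold changes were above 0 for 28 of 34 members, against 47.4% of all genes, with a median log2 fold change of 0.06 for peroxins and 0.18 for enzymes and transporters against -0.01 for all genes. On log2(FPKM + 1) 22 of 34 were above 0, against 33% of all genes, and the peroxin median was -0.0085 against -0.07 for all genes.

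Pex11a (NCBI gene 18631) stood at 36.9, 39.5, 39.8 and 40.7 FPKM in livers 9 to 12 (Ad_GFP_HFLMCD). Livers 13 to 16 (Ad_Chrebpa_HFLMCD) had 49.9, 60.0, 66.3 and 51.2 FPKM. All 4 treated livers lay above all 4 controls, and the log2 fold change was 0.61 (SE 0.09, adjusted p = 0.00422). By edgeR no other peroxin was called. Pex26, the membrane anchor of the ATPases that pull the cargo receptor back out, pointed the other way, with 10.7, 10.2, 8.28 and 8.33 FPKM in controls and 7.59, 7.29, 6.25 and 6.37 in treated livers. Its ranges did not overlap, but its log2 fold change of -0.37 (SE 0.11) missed the threshold at an adjusted p of 0.0566. DESeq2 (0.0182) and limma on log2(FPKM + 1) (0.0323) called it lower. The edgeR fit of all 16 livers (0.233) and the 8 edgeR fits that left out 1 liver (0.0573 to 0.159) did not. Pex3, which starts membrane assembly, had 0.18 (SE 0.08, adjusted p = 0.171), and the other 10 peroxins ran from -0.23 to 0.15 with adjusted p of at least 0.232.

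Among the enzymes of β-oxidation, Eci2, which shifts double bonds so that unsaturated chains can be shortened, had the lowest adjusted p. It measured 108, 109, 114 and 107 FPKM in controls and 146, 128, 148 and 142 in treated livers, without overlap (log2 fold change 0.43, SE 0.06, adjusted p = 0.00558). Acox2, the oxidase for branched chains and bile acid precursors, measured 65.0, 59.6, 55.2 and 62.1 FPKM against 88.0, 72.0, 66.2 and 86.2, and its log2 fold change was 0.43 (SE 0.10, adjusted p = 0.0333). Scp2, the most abundant member, measured 991, 964, 1004 and 1031 FPKM against 1081, 1125, 1197 and 1139, a small step of 0.26 on the log2 scale (SE 0.06, adjusted p = 0.0371) with no overlap. The thiolases Acaa1a and Acaa1b and the bifunctional enzymes of the same pathway were not called. Decr2, a reductase for unsaturated chains, had 0.28 (adjusted p = 0.0594), and Acox3, Acaa1a, Pecr and Ech1 had 0.07 to 0.18 with adjusted p of at least 0.188. Ehhadh, the bifunctional protein for straight chains and dicarboxylic acids, had the largest fold change of the members. Its controls had 83.9, 66.8, 81.8 and 80.3 FPKM and its treated livers 95.4, 186.6, 125.5 and 85.7. The ranges did not overlap, yet liver 14 stood far above the other treated livers, and the log2 fold change of 0.72 (SE 0.21) had an adjusted p of 0.0642. Without liver 14 the value was 0.46. The same liver was the highest of its group for Acaa1b, at 494 FPKM against 295, 377 and 301 in the other 3, with controls at 305, 283, 330 and 355 (log2 fold change 0.27, SE 0.15, adjusted p = 0.298). Hsd17b4, the bifunctional protein for branched chains, had 165, 165, 168 and 172 FPKM in controls and 159, 165, 169 and 160 in treated livers, and its log2 fold change was 0.03 (SE 0.05, adjusted p = 0.705) by counts and -0.04 on log2(FPKM + 1).

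Both enzymes that act in sequence on 3-methyl-branched acids rose. Phyh measured 835, 704, 878 and 856 FPKM in controls and 1082, 962, 964 and 1064 in treated livers (log2 fold change 0.38, SE 0.10, adjusted p = 0.0387). Hacl1, the lyase that removes 1 carbon from the 2-hydroxyacyl-CoA that Phyh makes, measured 21.3, 16.9, 19.7 and 17.4 FPKM against 30.1, 24.2, 31.7 and 30.3 (log2 fold change 0.69, SE 0.11, adjusted p = 0.00792). Neither gene's ranges overlapped. The racemase Amacr, which prepares branched acids for β-oxidation, had 0.09 (adjusted p = 0.462). Cat rose as well, from 798, 861, 766 and 897 FPKM to 1035, 965, 1022 and 998 (log2 fold change 0.35, SE 0.07, adjusted p = 0.0157), again without overlap.

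The genes of transport went different ways. Abcd2 measured 12.8, 9.82, 9.11 and 10.5 FPKM in controls and 7.97, 6.51, 5.22 and 6.63 in treated livers, so that all treated livers were below all controls (log2 fold change -0.61, SE 0.15, adjusted p = 0.0338). Abcd3, another fatty acid transporter of the peroxisome membrane, had 127, 129, 133 and 131 FPKM against 128, 139, 141 and 121, with overlap (log2 fold change 0.09, SE 0.06, adjusted p = 0.357). Crot, which attaches carnitine to shortened chains for export, had 0.33 (SE 0.09, adjusted p = 0.0507), and Acot8, a thioesterase that releases them as free acids, had 0.11 (adjusted p = 0.421). The ether lipid enzymes Agps and Gnpat had -0.13 and 0.03 (adjusted p = 0.364 and 0.794). Read counts scaled to library size by TMM, the edgeR normalisation (CPM from here on), did not overlap between the groups for 11 members that were higher, against 9.94% of all genes, and for 2 members that were lower, against 6.76%.

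**Figure D1:**
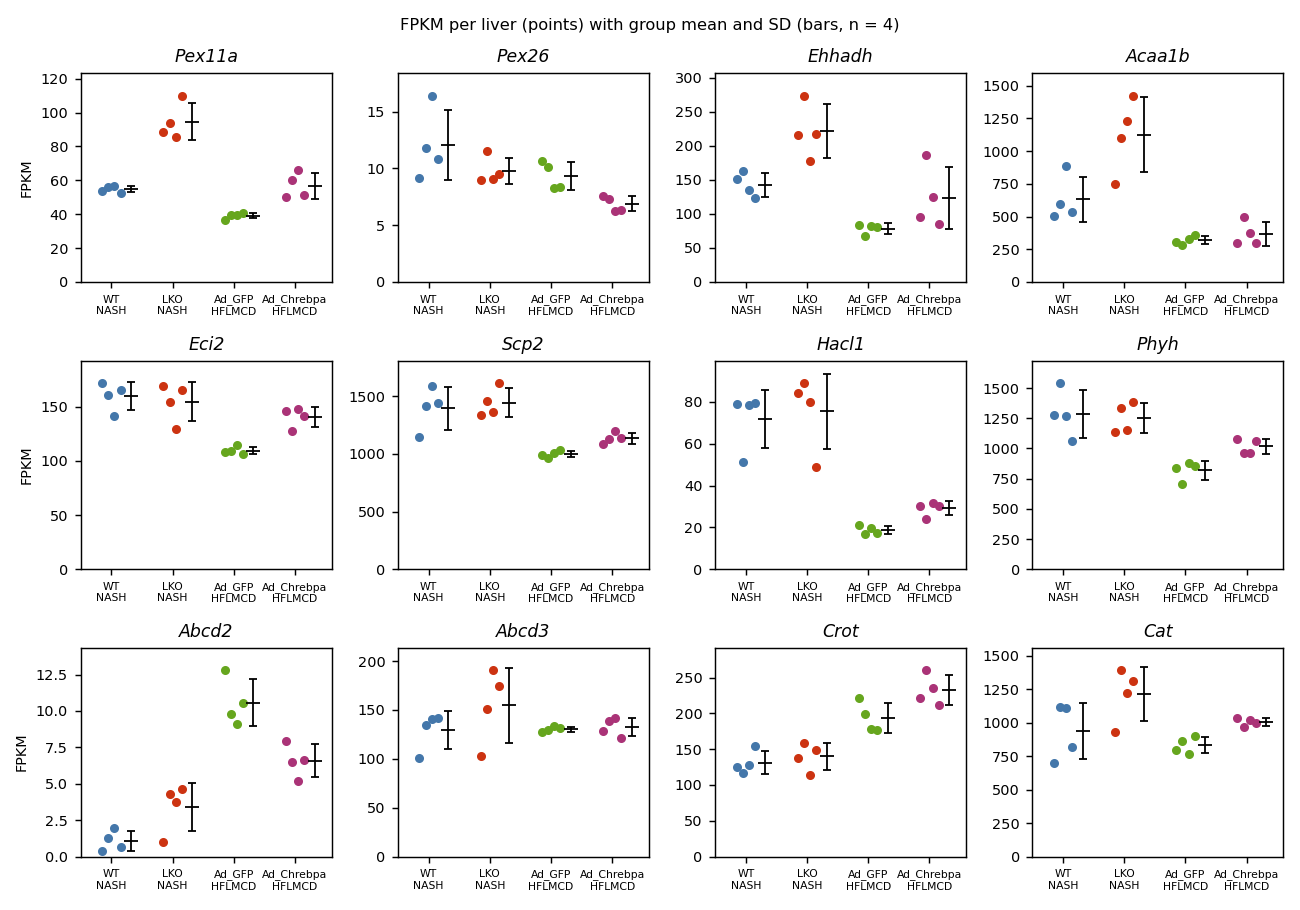
FPKM (vertical axis, from 0) of 12 members in each of the 16 livers by group (horizontal axis), with the mean and SD of 4 livers as bars. Pex11a is higher in each ChREBPα-manipulated group than in its control, Hacl1 and Eci2 are higher with ChREBPα virus, and liver 14 stands out in Ehhadh and Acaa1b.

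Of the 8 calls in the overexpression experiment, Pex11a, Eci2 and Hacl1 held in all 8 fits that left out 1 liver. Cat was lost without liver 11 (adjusted p = 0.0508), Acox2 without any 1 of livers 10, 11, 12, 13 and 16, Scp2 without any 1 of livers 9 to 13, 15 and 16, Phyh without any 1 of livers 9, 11, 12, 13, 15 and 16, and Abcd2 without any 1 of livers 9, 12, 15 and 16, while all log2 fold changes kept their sign. In the fit of all 16 livers Pex11a, Eci2 and Acox2 were called, and the calls of Hacl1 (adjusted p = 0.063), Phyh (0.126), Scp2 (0.159), Cat (0.228) and Abcd2 (0.514) were lost. Of the calls over all genes 60.9% were higher by counts and 30.3% on log2(FPKM + 1), where 7 members rose and 2 fell, Pex26 being the second. Of the hepatocyte markers 1 of 8 was called higher and 7 had a fold change above 0 (median log2 fold change 0.26), and their summed FPKM overlapped, at 41772 to 51732 in controls and 44359 to 50877 in treated livers. Cholangiocyte markers were lower, 3 of 4 called, with summed FPKM of 7.48 to 11.9 in controls and 4.18 to 5.21 in treated livers and the defining marker Krt19 at 1.62 to 2.82 and 0.80 to 1.01. Among erythroid markers Alas2 was called higher and Hba-a1 lower, with summed FPKM of 682 to 1089 in controls and 321 to 800 in treated livers, and of 8 macrophage markers Itgax was called higher. The part of these cells in the members' values was not tested.

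Peroxisomal genes outside the 34 were counted from a separate list. Of 41 other genes of the organelle 39 were tested, and 8 rose and 0 fell by edgeR (16 and 3 at p below 0.05 without adjustment, 13 and 0 by DESeq2), with a median log2 fold change of 0.15. Over all genes 13.5% were higher and 13% lower without adjustment, and DESeq2 called 6.35% higher and 4.75% lower. Those with the lowest adjusted p were Acot12, a thioesterase (0.35, adjusted p = 0.0072), Pxmp4, a membrane protein (0.37, 0.0176), Pipox, an amino acid oxidase (0.57, 0.0184), and Acad11, an acyl-CoA dehydrogenase (0.23, 0.0271). Of 32 genes of the PPARα axis outside the organelle 9 rose and 0 fell (16 and 3 without adjustment, 11 and 1 by DESeq2), with a median of 0.18. They included the fatty acid hydroxylase Cyp4a32 (1.38, adjusted p = 0.0033), the electron carrier Etfdh (0.38, 0.00814) and the thioesterase Acot3 (1.52, 0.0243). Ppara itself was at 42.7, 46.7, 38.2 and 41.8 FPKM in controls and 60.1, 48.4, 52.7 and 65.1 in treated livers, with no overlap (log2 fold change 0.49, SE 0.10, adjusted p = 0.0173).

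Removal of ChREBPα from hepatocytes was examined under the NASH diet. Of the 34 members 0 were called higher and 0 lower, where 0% of 12786 genes were called higher and 0% lower. The member with the clearest difference was Pex11a, which was higher in the livers labelled LKO_NASH. It had 54.0, 56.3, 56.5 and 52.8 FPKM in livers 17 to 20 (WT_NASH) and 88.8, 93.7, 85.8 and 110.1 in livers 21 to 24. The lowest LKO_NASH liver was thus well above the highest control, and the log2 fold change was 0.63 (SE 0.09, unadjusted p = 4.09e-05), yet its adjusted p was 0.254 by edgeR. Pex11a was called by DESeq2 (adjusted p = 2.76e-07, with 0.501% of genes called higher), in an edgeR fit of all 16 livers (0.0126, 0.622%) and without liver 21 (0.0239, with 1.28% of genes called higher and 1.96% lower). On log2(FPKM + 1) its adjusted p was 0.106.

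At an unadjusted p below 0.05, 4 members were higher and 1 was lower in LKO_NASH, where 7.7% of all genes were higher and 5.88% lower, so the members' count stood close to that background. Besides Pex11a these were Acaa1b, Ehhadh, Abcd2 and, lower, Pex26. Acaa1b had 506, 599, 885 and 537 FPKM in WT_NASH and 750, 1100, 1232 and 1425 in LKO_NASH, where liver 21 lay below WT_NASH liver 19 (log2 fold change 0.68, SE 0.23, adjusted p = 0.343). Ehhadh had 151, 163, 134 and 123 FPKM against 216, 274, 178 and 218, apart on the FPKM scale, but overlapping once scaled by TMM (log2 fold change 0.47, SE 0.17, adjusted p = 0.349). Abcd2 was scarce, at 0.38, 1.28, 1.93 and 0.65 FPKM against 0.98, 4.27, 3.73 and 4.64, and again liver 21 sat among the controls (log2 fold change 1.51, SE 0.55, adjusted p = 0.353). Pex26 had 9.19, 11.8, 16.4 and 10.8 FPKM against 9.02, 11.5, 9.11 and 9.49, with liver 19 alone at the top (log2 fold change -0.44, SE 0.17, adjusted p = 0.356).

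The remaining members were closer to 0. Pex16, a membrane assembly factor, had a log2 fold change of 0.23 (adjusted p = 0.423). Hsd17b4 had 145, 166, 180 and 152 FPKM in WT_NASH and 167, 226, 205 and 252 in LKO_NASH (0.24, SE 0.14, adjusted p = 0.429). Cat had 699, 1116, 1107 and 820 FPKM against 933, 1391, 1223 and 1307, a wide spread in both groups (0.22, SE 0.20, adjusted p = 0.593). Abcd3 had 101, 135, 140 and 142 FPKM against 103, 151, 191 and 174 (0.11, SE 0.19, adjusted p = 0.79), and without liver 23 its value was -0.04. All 3 enzymes for branched-chain and 2-hydroxy acids had values below 0 by counts, namely Phyh (-0.20), Amacr (-0.07) and Hacl1 (-0.07), none called, with Amacr and Hacl1 above 0 on log2(FPKM + 1). The other 22 members had values of -0.23 to 0.40, with adjusted p of at least 0.444. Over all members 22 of 34 fold changes were above 0, against 51.5% of all genes, with medians of 0.11 for peroxins and 0.05 for enzymes and transporters against 0.01 for all genes. On log2(FPKM + 1) 30 of 34 were above 0, against 73.5% of all genes. CPM did not overlap between the groups for Pex11a, 1 of 34, against 2.81% of genes higher and 3.25% lower.

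Markers of other cell types were compared over the same livers. Macrophage and Kupffer cell markers had fold changes above 0 for 8 of 8 (median log2 fold change 0.76), with summed FPKM of 40.7 to 86.4 in WT_NASH and 54.9 to 149.6 in LKO_NASH, and hepatocyte markers were below 0 for 7 of 8 (median -0.33), with summed FPKM of 55982 to 66817 and 51291 to 61117. Also above 0 were 5 of 5 endothelial, 3 of 3 erythroid, 5 of 6 stellate and 3 of 4 tested T and NK cell markers. The 1 tested B cell marker and the 1 tested adipocyte marker were above 0 too. Below 0 were 2 of 2 tested neutrophil and 3 of 4 cholangiocyte markers. By edgeR 0 of all these markers were called. Without adjustment 4 macrophage, 2 T and NK cell, 2 stellate and 1 endothelial marker were higher and 2 hepatocyte markers lower at p below 0.05. Of the hepatocyte and macrophage markers DESeq2 called 1 lower (Ahsg), where it called 0.41% of all genes lower. The part of these cell types in the members' values was not tested. Among the 39 tested peroxisomal genes outside the members 0 were called by edgeR (3 higher and 2 lower without adjustment, 1 and 1 by DESeq2), and the median was 0.11. Among the 32 genes of the PPARα axis 0 were called by edgeR (8 higher and 1 lower without adjustment, 5 and 0 by DESeq2), and the median was 0.16. For comparison, 7.7% of all genes were higher and 5.88% lower without adjustment, and DESeq2 called 0.501% higher and 0.41% lower. Ppara was at 63.3, 70.6, 59.8 and 63.8 FPKM in WT_NASH and 60.5, 77.6, 79.4 and 82.2 in LKO_NASH, with overlap (log2 fold change 0.06, SE 0.13, adjusted p = 0.813).

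**Figure D2:**
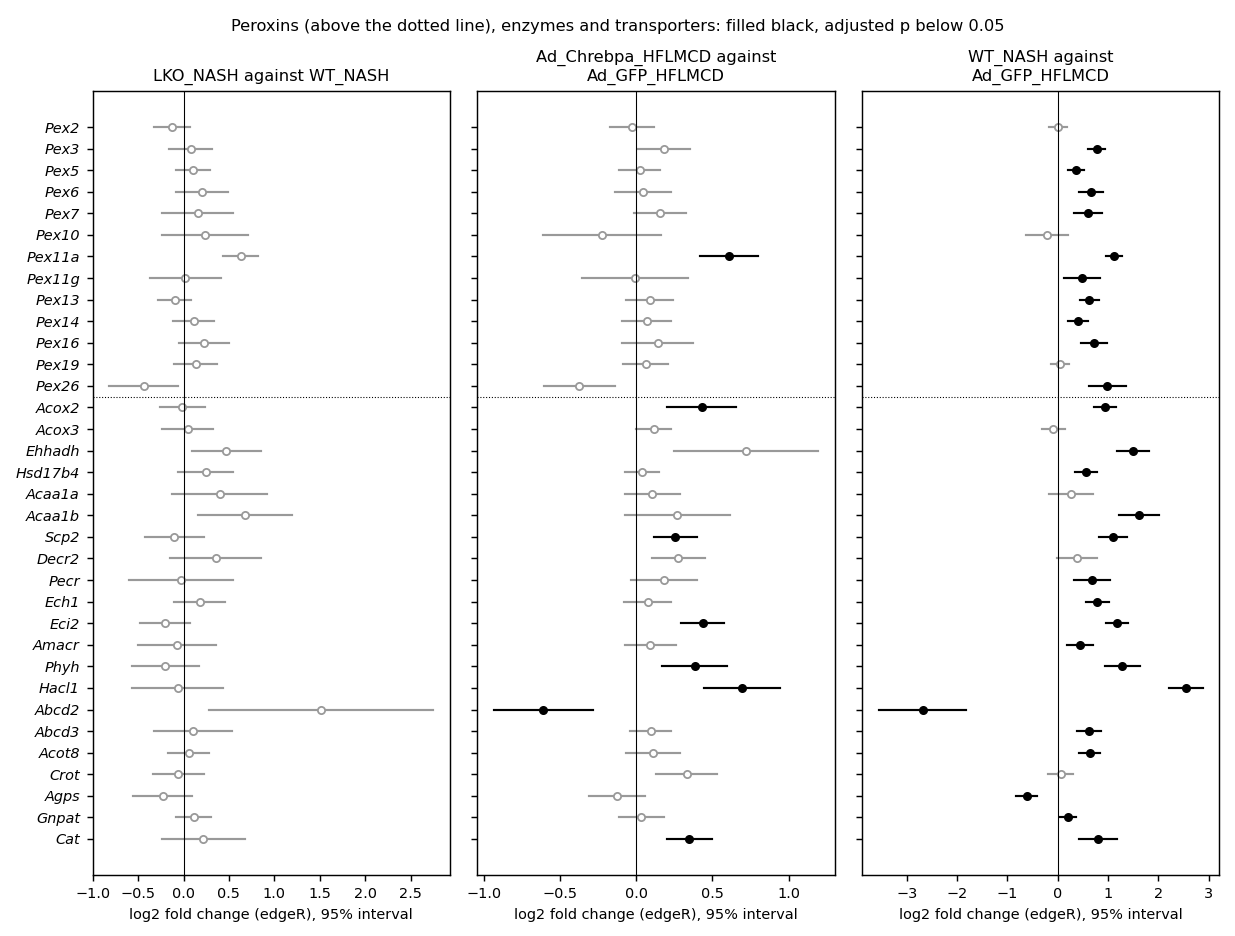
Log2 fold change of each member by edgeR with its 95% interval (horizontal axis) in the 3 comparisons, peroxins above the dotted line, filled black where the adjusted p is below 0.05. The deletion comparison has 0 filled points, overexpression has 8 and the comparison of control groups has 27.

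Set side by side, the 2 experiments gave Pex11a nearly the same value, 0.63 in the deletion and 0.61 with added ChREBPα, both higher than the respective control. Ehhadh likewise had 0.47 and 0.72, and Pex26 had -0.44 and -0.37. Abcd2 had opposite signs, 1.51 and -0.61. The enzymes that rose with the Chrebpα virus had values near or below 0 in the deletion, at -0.20 for Eci2 and Phyh, -0.10 for Scp2, -0.07 for Hacl1 and -0.01 for Acox2, except Cat at 0.22. In the main edgeR fits none of these deletion values was called, and Ehhadh and Pex26 were not called with added ChREBPα either. The difference between the experiments was not tested for any of these genes.

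The control groups of the experiments set the baseline on which these values stand. WT_NASH and Ad_GFP_HFLMCD differ in diet, feeding time, flox genotype and virus together, which cannot be told apart, and they are also the controls of the comparisons above. Mlxipl, the targeted gene, was itself called higher in WT_NASH, with an edgeR log2 fold change of 1.22 (SE 0.16, adjusted p = 0.000153). By counts 25 members were higher in WT_NASH and 2 lower, where 28.2% of 13488 genes were called higher and 30.9% lower. The higher members were 10 of the 13 peroxins and 15 of the 21 enzymes and transporters, and the lower ones were Abcd2 and Agps. The median log2 fold change was 0.60 for peroxins and 0.63 for enzymes and transporters against -0.01 for all genes. Values per liver are given here as TMM-scaled CPM, which compare a gene between livers and not genes with each other.

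Hacl1 showed the widest step upward, with 46.1, 34.3, 41.8 and 37.0 CPM in livers 9 to 12 and 282, 177, 258 and 254 CPM in livers 17 to 20 (log2 fold change 2.55, SE 0.15, adjusted p = 1.91e-06). Next came Acaa1b, with 417, 363, 443 and 478 CPM in Ad_GFP_HFLMCD and 1140, 1312, 1841 and 1084 in WT_NASH (1.61, SE 0.18, adjusted p = 4.75e-05). Ehhadh followed with 209, 156, 200 and 196 CPM against 621, 652, 510 and 454 (1.5, SE 0.14, adjusted p = 1.8e-05). For these 3 enzymes every WT_NASH liver lay above every Ad_GFP_HFLMCD liver. Phyh (1.28), Eci2 (1.18), Scp2 (1.11), Acox2 (0.94), Cat (0.80) and Ech1, an isomerase of double bonds (0.79), were called higher as well. So were Acot8 (0.63), Abcd3 (0.62) and Hsd17b4 (0.57), but these 3 had log2 differences of -0.0012, -0.019 and -0.062 on log2(FPKM + 1).

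Pex11a was again the peroxin with the largest value, at 26.0, 26.2, 27.5 and 28.2 CPM in Ad_GFP_HFLMCD and 62.8, 63.7, 60.7 and 55.0 in WT_NASH (log2 fold change 1.11, SE 0.07, adjusted p = 2.61e-06). Pex3 was called higher at 0.77 and Pex13, a docking factor of the import channel, at 0.63, although the FPKM of neither passed. Abcd2 was the member with the steepest fall, from 59.0, 42.6, 41.2 and 47.7 CPM in Ad_GFP_HFLMCD to 2.89, 9.46, 13.5 and 4.43 in WT_NASH (log2 fold change -2.69, SE 0.39, adjusted p = 0.000249). Agps, which makes the ether bond of plasmalogen precursors, had 25.3, 26.7, 23.5 and 26.5 CPM against 19.4, 16.3, 14.7 and 18.5 (-0.62, SE 0.10, adjusted p = 0.000371). The ranges of both genes did not overlap. The other 10 called members, among them Pex26 at 0.98, had values of 0.21 to 0.98. The 7 members that were not called were Pex2, Pex10, Pex19, Acox3, Acaa1a, Decr2 and Crot. Counted over all members, CPM did not overlap for 24 that were higher, against 29.2% of genes, and for 2 that were lower, against 27.2%.

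**Figure D3:**
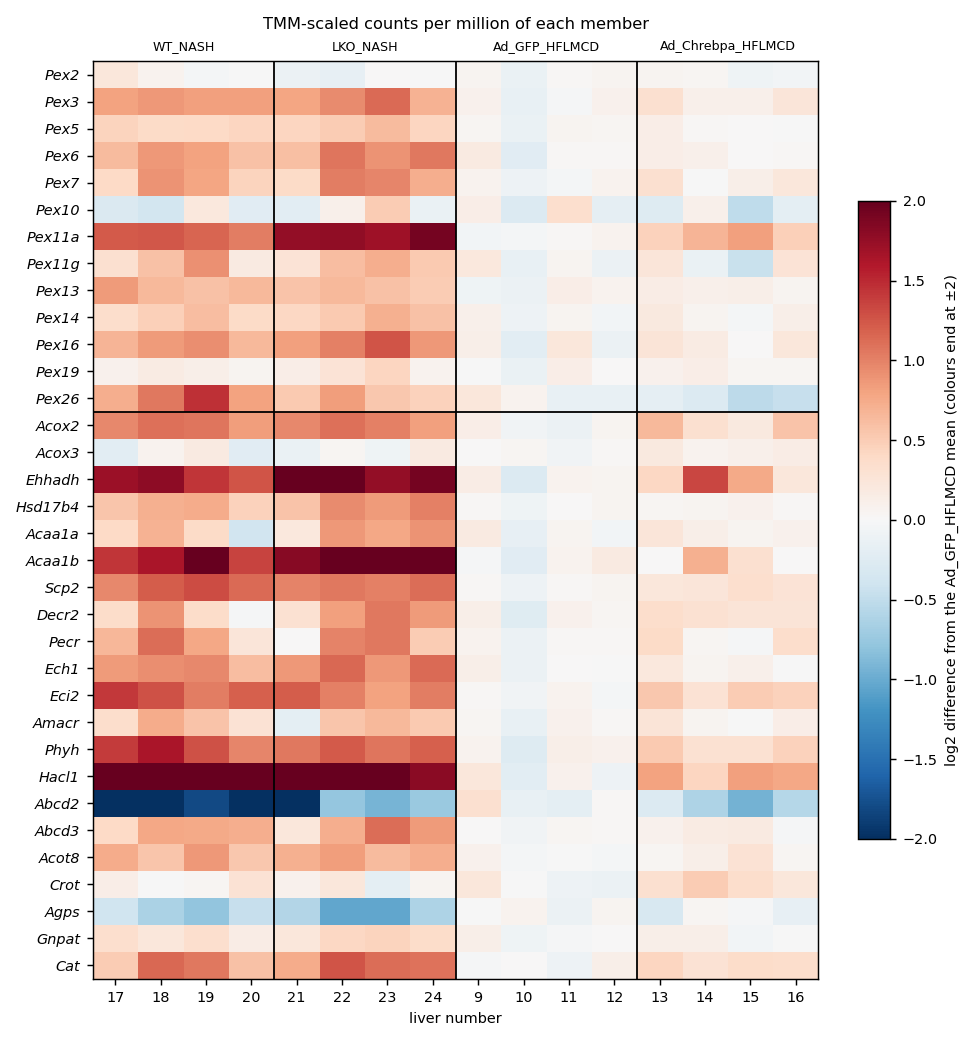
Log2 TMM-scaled CPM of each member (rows, peroxins above the line) in each liver (columns, by group) minus the mean of Ad_GFP_HFLMCD, with colours ending at ±2. WT_NASH and LKO_NASH are red in most rows and blue in Abcd2 and Agps.

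This comparison depended on the scale. The median over all genes was -0.48 on log2(FPKM + 1), a shift of -0.47 from the count scale, and limma called 6.02% of genes higher and 73.7% lower, so that 7.56% of the calls were higher against 47.7% by counts. Of the members 8 were then called higher and 10 lower. The 8 were Hacl1, Acaa1b, Ehhadh, Phyh, Eci2, Pex11a, Scp2 and Acox2, all called higher by counts too, while Abcd2 and Agps were called lower on both scales. Pex5, Pex14 and Gnpat were called in opposite directions, and 14 members changed sign. Relative to the median of all genes 27 of 34 members were above it on the FPKM scale and 30 of 34 by counts.

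**Figure D4:**
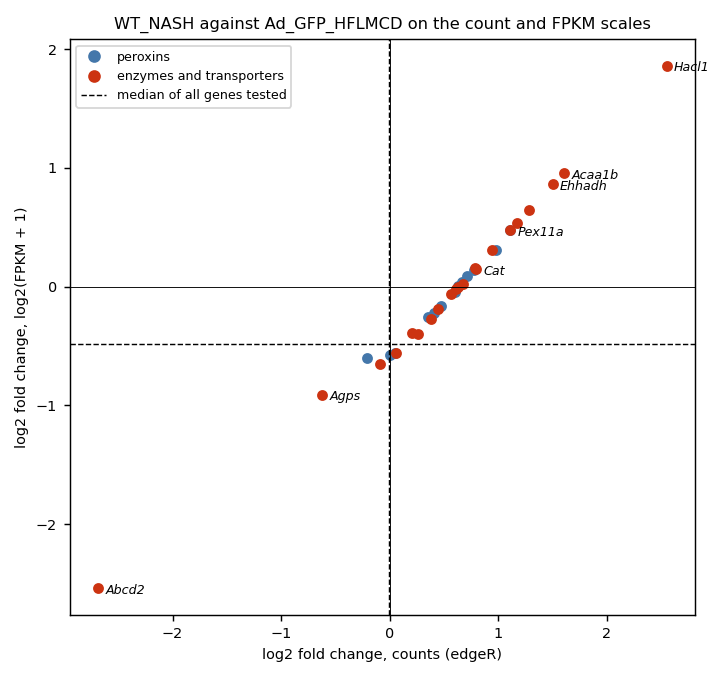
Log2 fold change of each member between the control groups by counts (edgeR, horizontal axis) and on log2(FPKM + 1) (vertical axis), peroxins in blue and the other members in red, with dashed lines at the median of all genes. Most members lie above the dashed horizontal line at -0.48, and Hacl1, Acaa1b, Ehhadh and Pex11a are above 0 on both axes.

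Cell type markers differed between the control groups too. Hepatocyte markers were called higher in WT_NASH for 8 of 8 (median log2 fold change 1.18), with summed FPKM of 55982 to 66817 against 41772 to 51732. Macrophage and Kupffer cell markers were called lower for 6 of 8 and higher for 1, with summed FPKM of 40.7 to 86.4 against 325.9 to 602.6, and stellate cell markers lower for 5 of 6, at 13.8 to 20.0 against 85.5 to 141.7. Neutrophil markers were lower for 3 of 3 and T and NK cell markers for 4 of 5. Erythroid markers were higher for 3 of 3 (median 1.65), with summed FPKM of 1334 to 3087 in WT_NASH against 682 to 1089. The part of these cells in the members' values was not tested. Of the 39 other peroxisomal genes 27 were higher and 2 lower (median 0.53), led by the hydrolase Ephx2 (1.63, adjusted p = 2.74e-06) and the reductase Dhrs4 (0.99, 4.59e-06), with Far1, the reductase that makes the fatty alcohol for ether lipids, among the lower ones (-2.01, 1.19e-05). Among 32 genes of the PPARα axis 22 were higher and 6 lower (median 0.58), with the thioesterase Acot1 at 3.36 (adjusted p = 8.89e-07), the uncoupling protein Ucp2 at -2.33 (1.74e-06) and Ppara at 1.23 (9.71e-06).

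The thiolase genes Acaa1a and Acaa1b are near-identical copies and share reads. Their expected counts summed to a whole number in 16 of 16 livers within 0.005, while the count of Acaa1a alone was whole in 0 of 16, so reads that match both were divided between them by estimate. Acaa1b took 72.0% to 91.0% of the pair. With the pair summed, an alternative chosen after seeing the data, the log2 fold changes were 0.65 in the deletion, 0.23 with Chrebpα virus and 1.37 between the controls, with the same calls as for Acaa1b alone. Estimated counts with decimals occurred in 10 of the 34 members, in all 16 livers for Pex3, Pex13, Decr2 and Abcd2 besides this pair. Pex11a overlaps Wdr93 in the annotation, and the sources used here do not say whether reads were assigned by strand. Wdr93 averaged 0.62 FPKM over the livers. A larger neighbour was Pus10, which overlaps Pex13 and averaged 6.54 FPKM where Pex13 had group means of 14.3 to 14.9. Snx21, which overlaps Acot8, averaged 5.25 FPKM where Acot8 had 11.5 to 13.3. Adat2, which overlaps Pex3, averaged 1.81 FPKM where Pex3 had 11.4 to 15.1. The values of Pex13 and Acot8, and to a smaller extent Pex3, are therefore uncertain.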

How the data were processed

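RNA of 16 mouse livers was sequenced as 1 library each, after oligo-dT selection or ribosomal RNA depletion per the labels' protocols. Per the file headers the authors deposited expected counts (estimated, not normalised) and FPKM for each gene. The submitters' processing notes name HISAT2 with no version. The counter, build and annotation behind the tables are likewise not given in the sources used here. The tables list no FPKM below 0.01, so unlisted genes were taken as 0. There were 17436 entries. Adding 26 entries that carry a transcript name to their genes gave 17410 genes, of which 17371 were matched by gene number to a GRCm38.p6 table. After rounding to whole numbers, the expected counts went into 3 fits of 8 libraries with R 4.3.3 and edgeR 4.0.16 (genes kept by filterByExpr, TMM, quasi-likelihood F test, two-sided, Benjamini-Hochberg adjustment over all genes tested, called below 0.05). Biological coefficients of variation were 0.221 (deletion), 0.126 (overexpression) and 0.164 (control groups). Ranges per liver use 1 TMM scaling of the 16 libraries. The edgeR and DESeq2 fits were also run on simulated counts with set changes, drawn independently for each gene and library. The outcome is not given here, and such counts hold no effect shared by the genes of a liver, so the run does not check the values above. Tables used pandas 2.3.3 and NumPy 2.4.6 under Python 3.11.15, and plots used matplotlib 3.10.9.

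The labels number the livers 9 to 24 and do not state outright that each is a separate animal, so the spread behind the p-values may be technical. The members and gene lists were chosen with earlier results of these data known. Individual values are given for Ehhadh, Acaa1b, Pex11a, Cat, Abcd2, Abcd3 and Hsd17b4, for called members (up to 14 by lowest adjusted p) or at least 6 by lowest p in each comparison, for up to 4 called genes of lowest adjusted p of each of 2 other lists and for Ppara. Far1 and further members were named after their values were seen. Alternatives were DESeq2 1.42.0, its size factors within edgeR, testing every gene, testing genes with a mean FPKM of 1 or more, limma 3.58.1 on log2(FPKM + 1) (with and without that minimum) and on log2(FPKM + 0.1), a joint fit of the 16 libraries, and each liver left out. A comparison of protein sequences was not made here.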

Additional observations from a re-analysis of the deposited data

Results flagged for a closer look

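In 76 groups of 4 livers, from 19 members in each of the 4 groups, the gap between the highest or lowest liver and its neighbour was compared with the range of the group, a check that chance passes in about 1 of 20 groups. It was passed in 2. Hacl1, the 2-hydroxyacyl-CoA lyase, was at 51.08 FPKM in WT_NASH liver 18, against 78.36 to 79.42 in the other 3 livers of the group. Pex3, the membrane assembly factor, was at 11.65 FPKM in WT_NASH liver 17, against 12.93 to 12.98 in the other 3.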

How the results depend on the processing

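In the deletion comparison 1 member (Pex11a) was called higher by DESeq2 and in the fit of all 16 libraries, and 0 to 1 in the fits without 1 liver. Medians on log2(FPKM + 1), with or without a filter, were 0.26 for peroxins and 0.19 for enzymes and transporters, and on log2(FPKM + 0.1) they were 0.26 and 0.21. The shift of all genes on log2(FPKM + 1) was 0.10. Abcd3 ran from -0.037 to 0.246 without 1 liver. Over all genes DESeq2 called 83 higher and 68 lower, the joint fit 86 and 66, and the fit without liver 21 called 166 and 254.

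With Chrebpα virus 3 to 7 members were called higher and 0 to 1 lower without 1 liver. The joint fit called 3 higher and 0 lower, limma on unfiltered log2(FPKM + 1) called 4 higher, and DESeq2 and limma on log2(FPKM + 1) or log2(FPKM + 0.1) called 2 lower. DESeq2 called 10 members higher, adding Ehhadh (adjusted p = 0.00647), Crot and Decr2. The median of enzymes and transporters was 0.10 under all 3 FPKM settings, and Hsd17b4 was -0.036 in each. Over all genes the joint fit called 236 higher and 100 lower, DESeq2 1088 and 814, and fits without 1 liver 263 to 937 and 137 to 785.

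Between the control groups all 3 FPKM settings called 8 members higher and 10 lower. Their medians were -0.041 (-0.043 with 0.1 added) for peroxins and -0.0012 (-0.0017 with 0.1 added) for enzymes and transporters. Acot8 was at -0.0012 (-0.0017 with 0.1 added), Abcd3 at -0.019 and Hsd17b4 at -0.062. Of the 27 calls 25 held in every fit without 1 liver, the exceptions being Pex11g and Gnpat. The cause of these changes was not tested. No paired analysis was possible because the groups share no replicate numbers. Depth limits mainly Abcd2 and Pex10, which had the lowest counts of the members in WT_NASH.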

Other observations

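Correlation of the members within groups was taken pair by pair. The median Pearson r of deviations from the group mean of log2(FPKM + 1) over the 16 livers was 0.38 for 78 pairs of peroxins, 0.29 for 210 pairs of enzymes and transporters and 0.30 for 273 pairs across both. Each pair shares its libraries, no median was taken for pairs of other genes, and the values are descriptions.

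Ehhadh had the 5 most similar genes by the same measure among 10920 genes with a mean of at least 1 FPKM in Caln1 (0.79), Prps1l3 (0.78), Hba-a2 (0.78), Jade3 (0.75) and Gtpbp8 (0.75), none of them a member. Pex11a came at rank 209 (0.50) and Acaa1b at rank 483 (0.40). The top genes are the highest of 10920 correlations over few livers, and the level that unrelated genes would reach was not tested. The list is a description and does not show that these genes follow Ehhadh.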
